A study of Homo sapiens with 8 samples.

Results

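Complement and acute phase genes were examined on 8 expression arrays of SCC13 cells, a human skin squamous cell carcinoma line. The list held 9 genes, and a gene was taken where the array's annotation pairs a probe set with it. This left 3 of the 9, C3, CFB and SAA1, each with 1 probe set, among 14884 genes tested. SAA2, C1R, C1S, CD46, CD55 and CD59 were not analysed here. There were 4 groups of 2 arrays, each named for the short hairpin RNA its cells held: shEZH2, shRING1B, shBMI1, and the control shGFP, aimed at a jellyfish protein. Every group therefore carries a hairpin, and no array of cells without one was used. Values are log2 expression per probe set as deposited by the authors, in which 1 unit is a 2-fold difference.

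EZH2 is the histone methyltransferase of Polycomb repressive complex 2. RING1B and BMI1 are parts of Polycomb repressive complex 1, a ubiquitin ligase for histone H2A. The labels do not say how the hairpins were delivered, whether cells were pooled or cloned, or whether replicate arrays stand for separate cultures. The spread behind each p-value is that between replicate arrays, and it may be only technical. In the sample titles, the shEZH2 arrays have the prefix SCCL3 and the other 6 have SCC13, while all 8 name SCC13 as the line. Whatever goes with that prefix and the effect of the shEZH2 hairpin cannot be told apart in any value given here.

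Complement is a chain of blood proteins that tags and lyses microbes, and its classical, lectin and alternative routes meet at the cleavage of C3. CFB is the protease of the alternative route: bound to cleaved C3 it forms the enzyme that cuts more C3, so the 2 proteins work in 1 amplifying loop. SAA1 is a serum amyloid A protein, carried on lipoproteins in blood. The liver makes most of all 3, their genes are induced by interleukin 1, interleukin 6 and NF-kB signalling during inflammation, and keratinocytes are among the other cells that can make C3 and CFB.

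EZH2 was 8.95 and 9.03 on the shEZH2 arrays, against 9.83 and 9.97 on the shGFP arrays, and fell by 0.91 ± 0.12 on the log2 scale (SE; limma adjusted p = 0.0183). This call was lost in 5 of 17 alternative analyses, among them those without either shEZH2 array or either shGFP array (values between -0.98 and -0.84). BMI1 and RNF2, the gene of RING1B, were not analysed here, so those hairpins were not checked. Array medians lay between 5.49 and 5.52. Over genes, shEZH2 arrays correlated with those of other hairpins at 0.992 to 0.993, and the other hairpins with each other at 0.993 to 0.996. Arrays of the same hairpin correlated at 0.9945 to 0.9959. The keratinocyte markers KRT5, DSG3 and SFN gave means of 10.4, 9.76 and 11.5 over the 8 arrays. The other measured ones were lower, with KRT14 at 9.33, EPCAM at 9.26 and KRT16 at 7.60.

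C3 and CFB rose with shEZH2 against shGFP, by 2.34-fold and 1.67-fold, where 0.732% of all genes passed. SAA1 was 2.03-fold higher without passing the test over all genes. With shRING1B and shBMI1 none of the 3 passed against shGFP, where 0% of all genes did, so this does not set them apart.

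**Figure D1:**
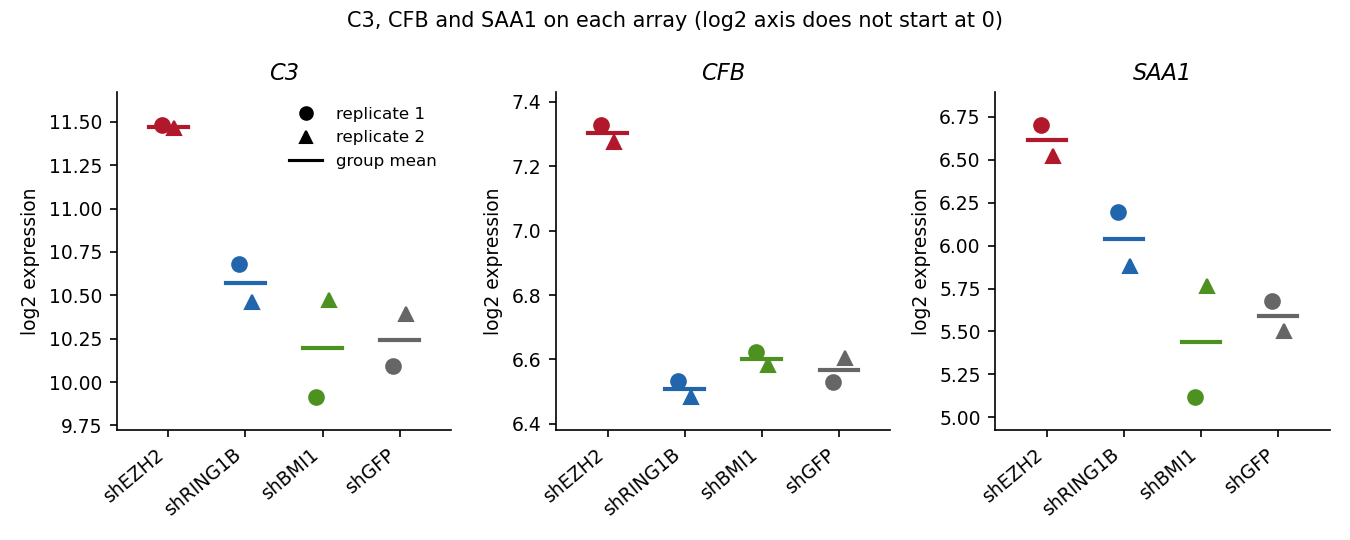
Log2 expression of C3, CFB and SAA1 (y axes, which do not start at 0) on each of the 8 arrays by hairpin, with circles for replicate 1, triangles for replicate 2 and bars for the mean of the 2 arrays. For all 3 genes both shEZH2 arrays lie above the other 6, and how many of all genes do so was not counted. The shBMI1 arrays of C3 and SAA1 lie 0.56 and 0.65 log2 units apart.

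C3, the central complement protein, was 11.48 and 11.46 on the shEZH2 arrays, 10.68 and 10.46 on the shRING1B arrays, 9.91 and 10.47 on the shBMI1 arrays, and 10.10 and 10.39 on the shGFP arrays. Both shEZH2 arrays stood above every other array, by at least 0.78 log2 units. The group means were 11.47 ± 0.02 with shEZH2, 10.57 ± 0.16 with shRING1B, 10.19 ± 0.40 with shBMI1 and 10.24 ± 0.21 with shGFP (SD, n = 2 each). The arrays of shEZH2 agreed to 0.02 log2 units, where those of shBMI1 differed by 0.56.

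CFB, the protease of the alternative route, was 7.33 and 7.28 with shEZH2, 6.53 and 6.48 with shRING1B, 6.62 and 6.58 with shBMI1, and 6.53 and 6.60 with shGFP. The shEZH2 arrays again stood apart from the other 6, by at least 0.65 log2 units. Arrays of 1 hairpin differed by 0.04 to 0.07. Means were 7.30 ± 0.04 with shEZH2, 6.51 ± 0.04 with shRING1B, 6.60 ± 0.03 with shBMI1 and 6.57 ± 0.05 with shGFP (SD, n = 2 each).

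SAA1 was 6.70 and 6.52 with shEZH2, 6.19 and 5.88 with shRING1B, 5.12 and 5.76 with shBMI1, and 5.68 and 5.50 with shGFP. The shEZH2 arrays were the highest and the shRING1B arrays the next, while the shBMI1 and shGFP arrays overlapped. Means were 6.61 ± 0.13 with shEZH2, 6.04 ± 0.22 with shRING1B, 5.44 ± 0.46 with shBMI1 and 5.59 ± 0.12 with shGFP (SD, n = 2 each). SAA1 and SAA2 are near-identical copies, so how far this probe set also reads SAA2 is uncertain and was not tested.

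Against shGFP, 2 of the 3 genes passed with shEZH2, where 0.732% of all genes tested passed (83 higher and 26 lower). The split was 222 higher and 187 lower with the dimmest genes removed, and 281 and 367 with a trended robust variance. The log2 fold change was 1.23 ± 0.19 for C3 (SE; limma adjusted p = 0.0329) and 0.74 ± 0.08 for CFB (adjusted p = 0.0109). For SAA1 it was 1.02 ± 0.20 (adjusted p = 0.0816). CFB had the smaller change and the smaller p, and SAA1 the largest standard error of the 3. By the size of the change, C3 ranked 18, SAA1 40 and CFB 105 among the 14884 genes. In each of the 3, both shEZH2 arrays lay above both shGFP arrays, by 1.07 log2 units for C3, 0.84 for SAA1 and 0.67 for CFB. With 2 arrays against 2, such separation gives p = 0.333 in an exact permutation test. How many of all genes separate this way was not counted, for this or any other pair of hairpins here. Nor was it counted for shEZH2 above all other arrays together.

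The calls with shEZH2 rested on every array compared. Without shEZH2 replicate 1, shEZH2 replicate 2, shGFP replicate 1 or shGFP replicate 2, neither C3 nor CFB passed, though C3 stayed between 1.08 and 1.38 and CFB between 0.70 and 0.77. C3 also missed the threshold without either shRING1B array (adjusted p = 0.0584), and neither gene passed when all 53617 probe sets were tested (adjusted p = 0.15 for C3 and 0.11 for CFB). With only the 4 arrays compared CFB missed it (adjusted p = 0.055). SAA1 passed with only those 4 arrays (adjusted p = 0.0463), without either shBMI1 array (0.0339), with the 30% dimmest genes removed (0.0338), with array weights (0.0495) and with a trended robust variance (0.0105).

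**Figure D2:**
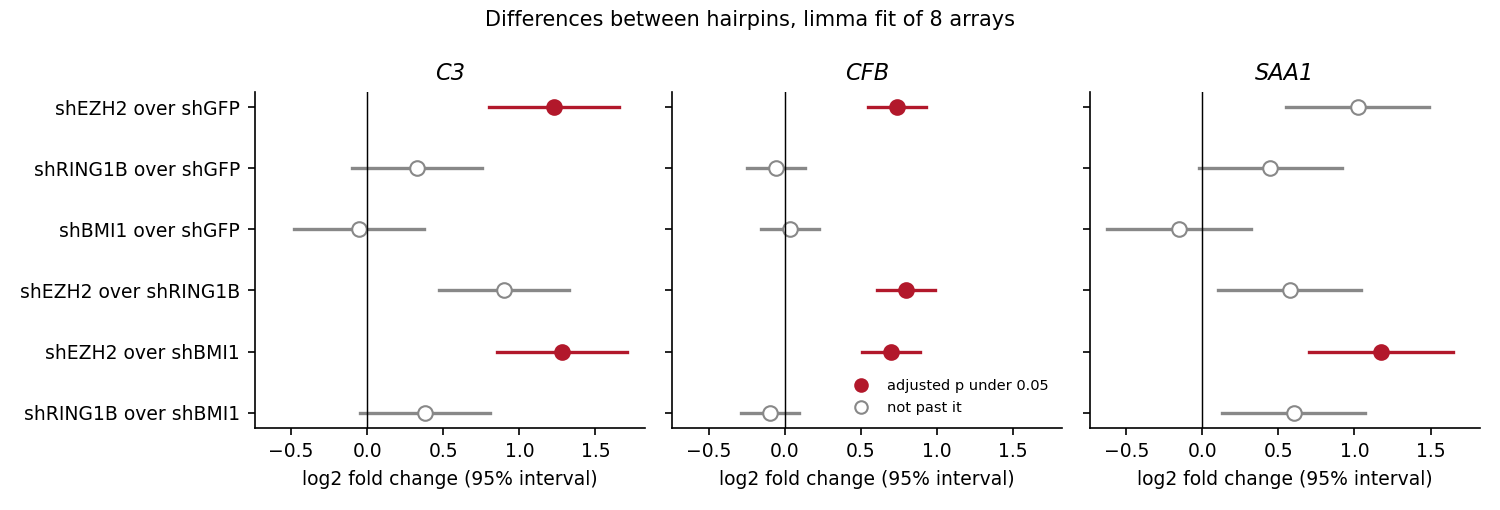
Log2 fold change (x axis) of C3, CFB and SAA1 in the 6 comparisons between hairpins, as points with 95% intervals from the limma fit of 8 arrays; filled red points have an adjusted p under 0.05. The filled points are C3, CFB and SAA1 for shEZH2 over shBMI1, C3 and CFB for shEZH2 over shGFP, and CFB for shEZH2 over shRING1B.

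With shRING1B against shGFP, 0 of the 3 genes passed by limma, as did 0% of all genes, with 1280 genes at an unadjusted p under 0.05. SAA1 was at 0.45 ± 0.20 (SE; 95% interval -0.02 to 0.92, adjusted p = 0.602) and C3 at 0.33 ± 0.19 (-0.10 to 0.75, adjusted p = 0.686). The shRING1B arrays of both genes lay above both shGFP arrays, by 0.20 log2 units for SAA1 and 0.07 for C3. CFB was at -0.06 ± 0.08 (-0.25 to 0.13, adjusted p = 0.902), and its interval lies below the CFB change with shEZH2. The shRING1B intervals leave room for changes of C3 up to 1.69-fold and of SAA1 up to 1.89-fold.

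With shBMI1 against shGFP, 0 of the 3 passed by limma, as did 0% of all genes, with 830 genes at an unadjusted p under 0.05. C3 was at -0.05 ± 0.19 (95% interval -0.48 to 0.38), CFB at 0.03 ± 0.08 (-0.16 to 0.23) and SAA1 at -0.15 ± 0.20 (-0.62 to 0.32), all with adjusted p = 0.999. The arrays of the 2 hairpins overlapped for each gene. The direction of C3 turned without shBMI1 replicate 1 (0.23) or shGFP replicate 2 (0.10), that of SAA1 without shBMI1 replicate 1 (0.17) and that of CFB without shGFP replicate 1 (-0.0024).

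Set directly against shRING1B and shBMI1, shEZH2 gave higher values of all 3 genes. These comparisons share the shEZH2 arrays with the one against shGFP. Against shBMI1 all 3 of 3 rose, where 0.974% of all genes passed: C3 by 2.43-fold (log2 1.28 ± 0.19 SE, adjusted p = 0.0233), SAA1 by 2.26-fold (1.17 ± 0.20, adjusted p = 0.0481) and CFB by 1.63-fold (0.70 ± 0.08, adjusted p = 0.0102). None of the 3 passed without either shEZH2 array, without shBMI1 replicate 1, with only the 4 arrays compared or over all probe sets, and CFB also missed the threshold without shBMI1 replicate 2 (adjusted p = 0.0667). The SAA1 call was also lost without either shRING1B array (0.0677) or either shGFP array (0.0701). Without shBMI1 replicate 1, the lowest array for both genes, C3 was at 1.00 and SAA1 at 0.85.

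Against shRING1B, 1 of the 3 rose with shEZH2, where 0.578% of all genes passed. CFB rose 1.73-fold (log2 0.79 ± 0.08 SE, adjusted p = 0.0109). C3 was at 0.90 ± 0.19 (adjusted p = 0.086) and SAA1 at 0.57 ± 0.20 (adjusted p = 0.245), with both shEZH2 arrays above both shRING1B arrays for each gene. The CFB call was lost without any 1 of the 4 arrays compared (adjusted p between 0.0639 and 0.139), with only those 4 arrays (0.0512) and over all probe sets (0.0984). C3 passed without either shBMI1 array (0.0471), with a trended robust variance (0.0383) and with the dimmest genes removed (0.0355).

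Between the 2 hairpins against complex 1 subunits, shRING1B and shBMI1, 0 of the 3 passed by limma, where 0.0134% of all genes did and 1367 genes had an unadjusted p under 0.05. SAA1 was at 0.60 ± 0.20 (SE; 95% interval 0.13 to 1.07, adjusted p = 0.43), with both shRING1B arrays above both shBMI1 arrays by 0.12 log2 units. C3 was at 0.38 ± 0.19 (-0.05 to 0.81) and CFB at -0.09 ± 0.08 (-0.28 to 0.10). The shRING1B array of C3 with the lower value fell 0.01 log2 units short of the higher shBMI1 array.

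The 250 bases before the CFB start site are shown because CFB was the gene that passed in all 3 comparisons of shEZH2, and because this stretch can be read for the binding motifs of factors that inflammation switches on. The sequence lies at chr6:31945845-31946094 on the plus strand of GRCh38.p14, from RefSeq. No promoter sequence of C3 or SAA1 is printed. Capitals mark matches to the 2 motifs found, reading 5′ to 3′.
CFB promoter: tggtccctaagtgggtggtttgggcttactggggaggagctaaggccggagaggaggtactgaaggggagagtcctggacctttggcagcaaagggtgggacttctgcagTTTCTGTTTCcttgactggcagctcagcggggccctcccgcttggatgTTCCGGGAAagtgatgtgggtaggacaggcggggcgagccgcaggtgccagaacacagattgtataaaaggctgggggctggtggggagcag

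Both strands of the window from 250 bases before to 50 after the start were searched for 4 motifs, with the start site counted as 0. The first match in capitals, TTTCTGTTTC at -140 to -131, is the interferon-stimulated response element, a pair of GAAA blocks 2 bases apart, on the minus strand, which 3.57% of 35116 RefSeq promoter windows of the same length hold. The second, TTCCGGGAA at -92 to -84, is the STAT element TTCNNNGAA, which reads the same on both strands and which 7.66% of the windows hold. The 2 matches do not overlap. The C/EBP motif TTGCNNAA, in 10.5% of windows, and the NF-kB consensus motif, in 5.91%, had no match in this window. A match describes letters only and is no evidence of binding.

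Among the other complement genes, 0 of 28 measured ones passed in any of the 6 comparisons, where between 0% and 0.974% of all genes did, so a count of 0 does not set them apart. Of 24 other components listed, 16 were measured, and their median change with shEZH2 over shGFP was 0.06 (range -0.20 to 0.35), beside -0.01 over all genes. COLEC11, a pattern-recognition protein of the lectin route, was at 0.35 ± 0.17 (SE; adjusted p = 0.357). CFD, the protease that cuts CFB in the alternative route, was at 0.33 ± 0.10 (adjusted p = 0.167), with 7.52 and 7.64 on the shEZH2 arrays, against 7.28 and 7.22 on the shGFP arrays. FCN2, a lectin route ficolin, was at 0.31 ± 0.18 (adjusted p = 0.431). With shRING1B over shGFP the median was -0.03, with the lectin route protein COLEC10 at 0.39 ± 0.12 (adjusted p = 0.406) and C9, the pore-forming protein, at -0.31 ± 0.11 (adjusted p = 0.475). With shBMI1 over shGFP it was 0.03. C9 and COLEC10 were dim, with means of 4.06 and 4.83 over the 8 arrays (percentiles 6.18 and 16.3 of the genes tested).

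Of 26 other regulators and receptors listed, 12 were measured. Their median with shEZH2 over shGFP was 0.19 (range -0.08 to 0.40), and 9 of the 12 were positive without passing, beside 48.1% of all genes. C5AR2, a receptor for the C5a fragment, was at 0.40 ± 0.16 (SE; adjusted p = 0.282), and CLU, an inhibitor of the lytic pore, at 0.31 ± 0.24 (adjusted p = 0.554). CFI, the protease that inactivates cleaved C3, was at 0.27 ± 0.13 (adjusted p = 0.336). With shRING1B the median was 0.06, with C5AR2 at -0.32 ± 0.16 and VTN, another inhibitor of the lytic pore, at -0.26 ± 0.10 (adjusted p = 0.645 and 0.533), and with shBMI1 it was -0.04.

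Of 20 other acute phase genes listed, 13 were measured and 0 passed in any comparison, where at most 0.974% of all genes did. With shEZH2 over shGFP their median was 0.07 (range -0.55 to 0.41). LCN2, a siderophore-binding protein of epithelia and neutrophils, was 6.65 and 6.77 with shEZH2, against 6.24 and 6.36 with shGFP (0.41 ± 0.10 SE, adjusted p = 0.0999). ITIH3, a hyaluronan-binding serum protein, was at 0.36 ± 0.12 (adjusted p = 0.196). ORM2, an orosomucoid with the near-identical copy ORM1, was at -0.55 ± 0.18 (adjusted p = 0.197). ORM1 itself was at 0.11 ± 0.16 (adjusted p = 0.783). With shRING1B the median was 0.06, with ITIH3 at 0.42 ± 0.12 (adjusted p = 0.38) and the fibrinogen chain FGG at -0.32 ± 0.14 (adjusted p = 0.578), and with shBMI1 it was 0.03.

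**Figure D3:**
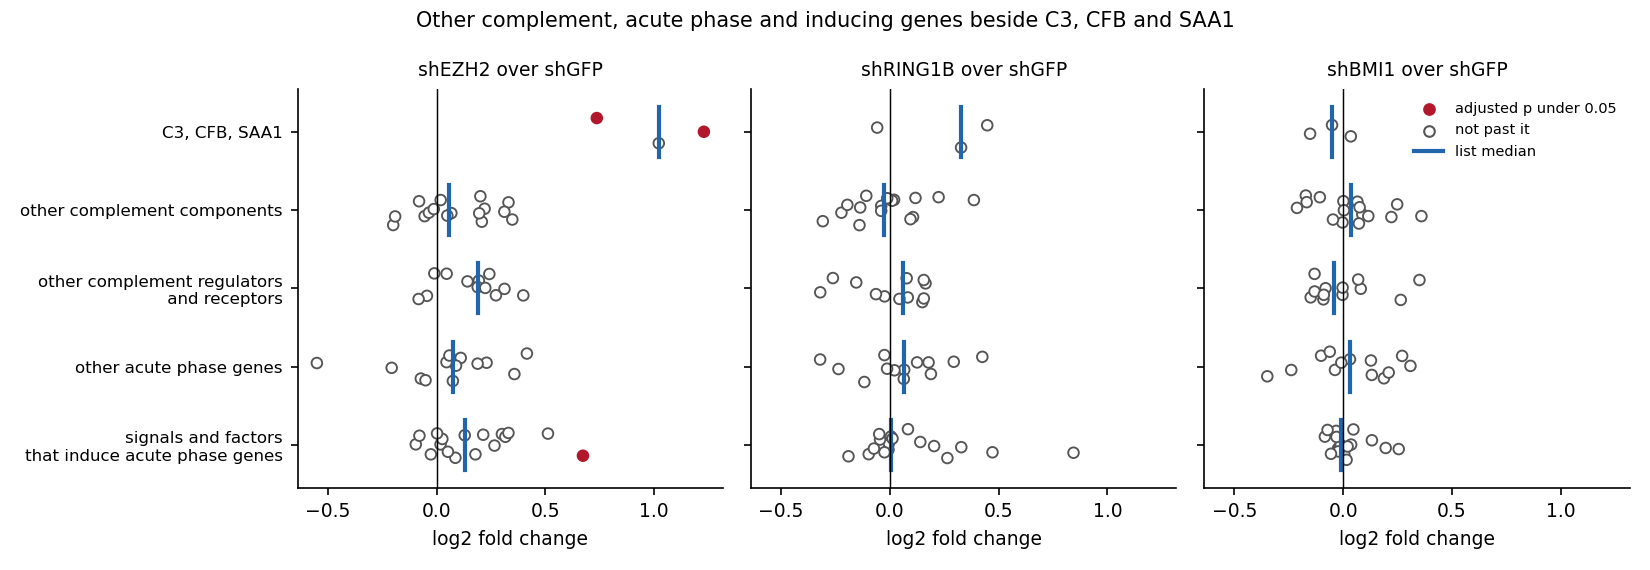
Log2 fold change over shGFP (x axis) of C3, CFB and SAA1 and of each measured gene of the 4 other lists with shEZH2, shRING1B and shBMI1; filled red points have an adjusted p under 0.05 and blue bars are list medians. C3, SAA1 and CFB, at 1.23, 1.02 and 0.74 with shEZH2, lie beyond every gene of the other lists, of which LIF is the highest at 0.67.

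Among 17 measured signals and factors that induce acute phase genes, of 31 listed, 1 rose with shEZH2 over shGFP and 14 were positive (median 0.13), where 0.732% of all genes passed and 48.1% were positive. The gene that rose was LIF, a cytokine of the interleukin 6 family. It was 6.96 and 6.98 with shEZH2, 7.22 and 7.06 with shRING1B, 6.23 and 6.19 with shBMI1, and 6.31 and 6.28 with shGFP. The shEZH2 and shRING1B arrays lay above the shBMI1 and shGFP arrays without overlap. Its change was 0.67 ± 0.09 with shEZH2 (SE; adjusted p = 0.0191) and 0.84 ± 0.09 with shRING1B (adjusted p = 0.0598). The shEZH2 call was lost in 6 of 17 alternative analyses, among them those without any 1 shEZH2 or shGFP array.

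LIF also rose with shEZH2 over shBMI1 (0.76 ± 0.09, adjusted p = 0.0102) and with shRING1B over shBMI1 (0.93 ± 0.09, adjusted p = 0.0439). The first call was lost in 5 of 17 alternative analyses, among them those without any 1 of the 4 arrays compared. The second was lost in 13 of 18, among them those without any 1 of the 8 arrays. It was also lost with only the 4 arrays compared, with array weights, over all probe sets and without the shEZH2 arrays. The NF-kB subunit NFKB2 was at 0.51 ± 0.13 with shEZH2 (SE; adjusted p = 0.122) and 0.33 ± 0.13 with shRING1B (adjusted p = 0.542). RELB, its partner, was at 0.33 ± 0.11 with shEZH2 (adjusted p = 0.195), and LIFR, the receptor subunit of LIF, at 0.47 ± 0.12 with shRING1B (adjusted p = 0.347). The list median was 0.00 with shRING1B and -0.01 with shBMI1.

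Markers of cells that make complement and acute phase proteins were read on the same arrays. All 6 measured macrophage markers of 10 listed were positive with shEZH2 over shGFP (median 0.26), as were 48.1% of all genes. Where 0.732% of all genes passed, 0 of these markers did. Their summed log2 level was 41.33 and 41.32 with shEZH2, 40.48 and 39.96 with shRING1B, 39.79 and 39.60 with shBMI1, and 40.04 and 39.65 with shGFP. Of the defining ones, CD14 was at 0.27 ± 0.23 (SE; adjusted p = 0.6), CD163 at 0.38 ± 0.11 (0.149) and CSF1R at 0.25 ± 0.15 (0.463). TYROBP, LYZ and CD68 were at 0.28 ± 0.12, 0.16 ± 0.10 and 0.14 ± 0.10. CD163 and LYZ were dim, with means of 4.21 and 4.37 over the 8 arrays (percentiles 7.75 and 9.51 of the genes tested). CD68 was bright with every hairpin, with a mean of 10.93 over the 8 arrays (percentile 97.8). The summed level was highest on the shEZH2 arrays, where C3, CFB and SAA1 were highest too, though single markers such as CD14, at 6.71 on shRING1B replicate 1 and 6.61 and 6.46 with shEZH2, were not. Their part in the result was not tested.

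Of 10 fibroblast markers 3 were measured, and their summed log2 level was 18.79 and 19.41 with shEZH2, 17.97 and 17.76 with shRING1B, 17.87 and 18.50 with shBMI1, and 17.20 and 17.64 with shGFP. DCN, the matrix proteoglycan decorin, rose with shEZH2 over shGFP (0.93 ± 0.10 SE, adjusted p = 0.0109) and over shRING1B (0.80 ± 0.10, adjusted p = 0.0186). Both calls were lost without any 1 of the arrays compared, and in 5 and 6 of 17 alternative analyses in all. LUM was at 0.89 ± 0.23 (adjusted p = 0.12) and THY1 at -0.15 ± 0.15 (adjusted p = 0.669) over shGFP. The part of these genes in the result was not tested either.

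Hepatocyte markers had a median of -0.04 over 8 measured genes of 10, with a summed log2 level of 41.79 and 41.65 with shEZH2, against 41.81 and 42.19 with shGFP. The 3 measured leukocyte markers of 10 had a median of 0.12 and summed levels of 15.45 and 15.54 with shEZH2, against 15.03 and 15.13 with shGFP, and the 6 endothelial ones of 8 had a median of 0.02. In neither list nor among hepatocyte markers did a gene pass in any comparison, where at most 0.974% of all genes did. Of 6 measured keratinocyte markers of 10, 0 passed with shEZH2 over shGFP, where 0.732% of all genes did, and 2 were positive (median -0.19). KRT14 was the lowest at -0.57 ± 0.13 (SE; adjusted p = 0.0999). DSG3, a desmosomal cadherin, was the highest at 0.43 ± 0.13 (adjusted p = 0.176). With shRING1B and shBMI1 over shGFP, DSG3 was at -0.58 ± 0.13 and -0.48 ± 0.13. Of the 6, 3 were positive with shEZH2 over shRING1B (median 0.02) and 2 over shBMI1 (median -0.12). In these comparisons DSG3 rose, over shRING1B by 1.01 ± 0.13 (adjusted p = 0.0187) and over shBMI1 by 0.91 ± 0.13 (adjusted p = 0.022). Each call was lost without any 1 of the 4 arrays compared, and in 6 and 5 of 17 alternative analyses in all. The part of DSG3 in the result was not tested. Fewer cells of a type and less RNA per cell cannot be told apart in these bulk samples.

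The genes beside each of the 3 on its chromosome were read next, a view chosen after the values of C3, CFB and SAA1 were seen. For each, the 3 nearest measured genes on either side were taken in the order of the RefSeq annotation, 6 per gene. Of these, 0 passed with shEZH2 over shGFP, where 0.732% of all genes did, so this count does not set them apart. Around CFB, in the class III stretch of the major histocompatibility complex on chromosome 6, values lay between -0.20 and 0.21. C2, the classical route counterpart of CFB and its close neighbour, was at 0.20 ± 0.11 (SE; adjusted p = 0.43). Around C3 on chromosome 19 they lay between -0.08 and 0.59, the highest being CD70, a ligand of the tumour necrosis factor family (0.59 ± 0.12, adjusted p = 0.0816). Around SAA1 on chromosome 11 they lay between -0.43 and 0.11, with the pseudogene SAA3P at -0.07 ± 0.12.

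Genes with the pattern most like each of the 3 were found by the root mean square difference over the 8 arrays, after each gene was centred on its own mean. For C3, which varied by 0.54 log2 units around its mean, the nearest were the aldehyde dehydrogenase ALDH2 (0.14), the tight junction protein CLDN7 (0.16), CLIC6, the sphingolipid phosphatase SGPP2 and the ubiquitin ligase subunit FBXO32 (each 0.17). SAA1 lay 0.18 from C3, close to these 5, and CFB lay 0.30 from it. For SAA1, which varied by 0.49, the nearest were the pseudokinase TRIB3 (0.15), the homeobox factor MKX, CLDN7, and the cytokine IL32 (0.18, 0.18 and 0.19) and CD22, a B cell lectin (0.19). CLDN7 was near both.

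For CFB, which varied by 0.33, the nearest were L3MBTL4 (0.05), kynureninase KYNU (0.06), LONRF1 (0.07), the arrestin-like ARRDC3 (0.08) and the stress transcription factor XBP1 (0.08). With shEZH2 over shGFP these 5 were at 0.69, 0.75, 0.65, 0.66 and 0.59 in the same order, beside 0.74 for CFB. With shRING1B over shGFP they lay between -0.14 and 0.01. The 5 genes near SAA1, in the order given, were at 0.55, 0.37, 0.11, 0.45 and 0.49 with shRING1B over shGFP, beside 0.45 for SAA1. All these genes were picked for closeness on the same arrays, so the likeness of their changes follows from the choice.

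**Figure D4:**
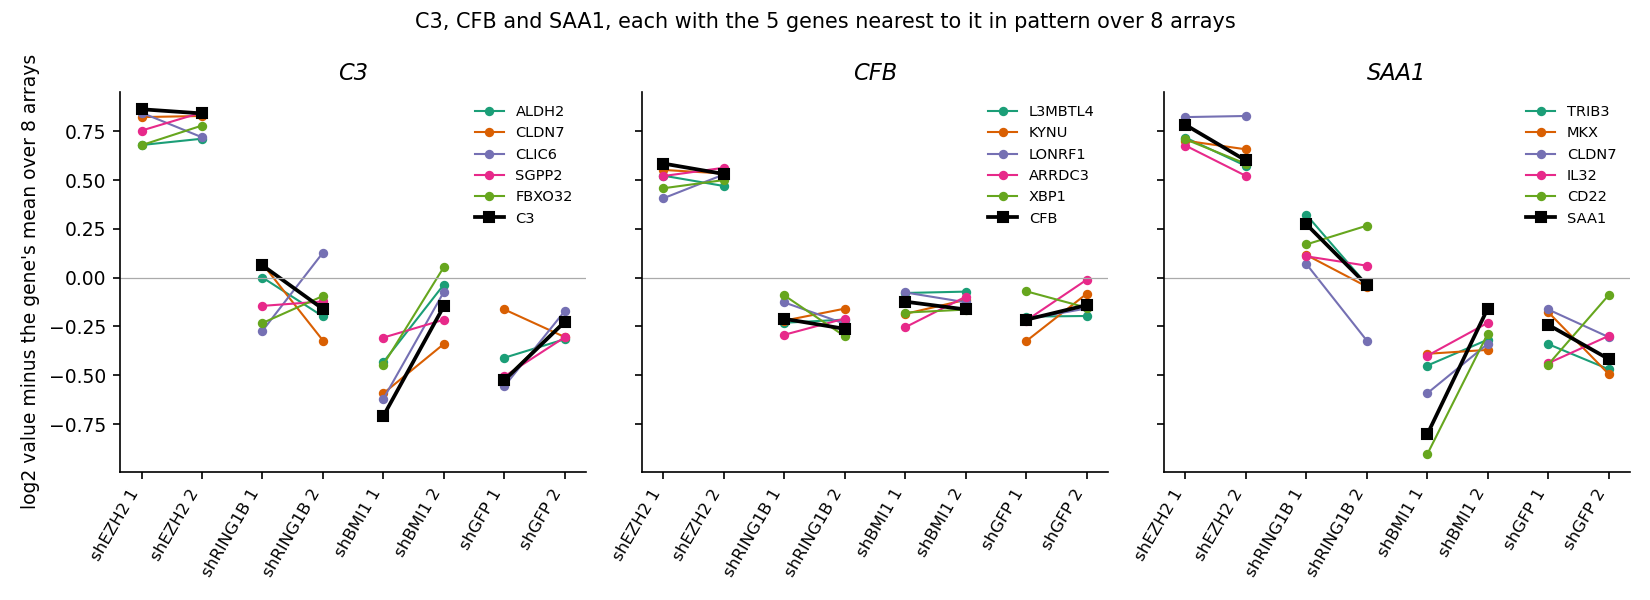
Log2 values minus each gene's mean over 8 arrays (y axis) for C3, CFB and SAA1 (black squares) and the 5 genes nearest to each (coloured circles), with lines joining the 2 arrays of a hairpin. Replicate arrays of CFB lie within 0.07 log2 units of each other, while the shBMI1 arrays of C3 and SAA1 differ by 0.56 and 0.65.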

How the data were processed

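RNA of 8 samples in 4 hairpin groups was hybridised to expression arrays. The authors deposited log2 expression per probe set, which the submitters' processing notes say came from RMA, with limma named too. The sources used here give no version or build. RMA gives all arrays 1 distribution, hiding shifts shared by most genes, and shrinks differences of dim probe sets. Groups come from the hairpin field and replicate numbers from the titles. Of 53617 probe sets, 16098 had 1 symbol, updated through RefSeq gene IDs. For 779 genes with several, the one with the highest mean was used.

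Limma 3.58.1 in R 4.3.3 was fitted to 14884 genes with a mean per group over 8 arrays (4 residual degrees of freedom), without trend or filter, and tested on simulated data. P-values are two-sided and Benjamini-Hochberg adjusted over all genes within a comparison, with a threshold of 0.05. With 2 arrays per group, an exact permutation test cannot go below p = 0.333, and the number of arrays limits the precision. The genes and the 10 lists were chosen with earlier results of these data known. Named genes are the listed genes, EZH2, list genes called in any comparison, the 3 of a list with the largest change with shEZH2 and the 2 with shRING1B, and the 5 nearest in pattern. The marker genes and chromosome neighbours named, and ORM1, were chosen after their values were seen.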

Additional observations from a re-analysis of the deposited data

Results flagged for a closer look

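The effects of 2 hairpins against the same shGFP arrays differed, by limma's test of the difference itself, for 4 results. C3 differed by 1.28 on the log2 scale between shEZH2 and shBMI1. CFB differed by 0.79 between shEZH2 and shRING1B and by 0.70 between shEZH2 and shBMI1. SAA1 differed by 1.17 between shEZH2 and shBMI1. All 4 rest on the shEZH2 arrays, whose title prefix cannot be told apart from the hairpin.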

How the results depend on the processing

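Every alternative for C3, CFB and SAA1 with shEZH2 over shGFP, shRING1B or shBMI1 kept its direction, while calls did not hold. Of the 3 genes, 2 passed over shGFP, against 0 over all probe sets and 0 to 3 with 1 array left out. Over shRING1B 1 passed, against 0 with only the 4 arrays compared and over all probe sets, 2 with the 30% dimmest genes removed and with a trended robust variance, and 0 to 2 with 1 array left out. Over shBMI1 3 passed, against 0 with only the 4 arrays compared and over all probe sets, and 0 to 2 with 1 array left out. A lone array of a group is assumed to vary like the other groups. Against shGFP, shRING1B and shBMI1 gave 0 of the 3 under each alternative. With 1 array left out, shBMI1 over shGFP ranged from -0.33 to 0.23 for C3, -0.0024 to 0.072 for CFB and -0.47 to 0.17 for SAA1.

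Over all genes, the count of 109 with shEZH2 over shGFP was 39 with only the 4 arrays compared, 409 with the dimmest genes removed, 174 with array weights, 648 with a trended robust variance, 4 with every probe set and 0 to 91 with 1 array left out. The count of 0 with shRING1B was 2 after quantile normalization, 11 without the dimmest genes and 36 with a trended robust variance. The cause was not tested. Equal replicate numbers are not said to mark a shared batch, and deviations of same-numbered arrays correlated at 0.00066 to 0.25 between groups. With the number as a replicate block, 108 genes and 2 of the 3 genes passed for shEZH2 over shGFP, SAA1 over shBMI1 had an adjusted p of 0.0683 and LIF for shRING1B over shBMI1 one of 0.0954.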
